A study of Homo sapiens with 6 samples.

Results

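This report describes 9 enzyme genes of the tricarboxylic acid (TCA) cycle, CS, IDH3A, IDH3B, OGDH, DLST, SUCLG1, SUCLG2, SUCLA2 and FH, in ACHN cells exposed to curcumol. The genes were chosen by name and found as 9 of the 58735 genes of a count table. The series holds poly(A)-selected RNA-seq libraries of ACHN, a human kidney cancer cell line in long use that the labels class as clear cell renal cell carcinoma. The curcumol group (3 libraries) was labelled wild-type and received curcumol, a sesquiterpenoid from Curcuma rhizomes, at a dose and for a time that the labels do not state. The control group (3 libraries) was labelled wild-type and vehicle control, although the series' design text says that it received no drug. The series' design text names glycolysis and malignant behaviour as the processes of interest, and names no gene of the cycle.

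The TCA cycle is the set of mitochondrial reactions that oxidizes the acetyl group of acetyl-CoA to carbon dioxide and passes the electrons to NAD+ and ubiquinone for the respiratory chain. Acetyl-CoA comes from pyruvate, fatty acids and some amino acids, so the cycle follows glycolysis in the breakdown of glucose. Its intermediates also leave for the synthesis of lipid, heme and amino acids. Several steps are run by complexes of different subunits, and succinyl-CoA ligase exists in 2 forms that share the alpha subunit SUCLG1 and differ in the beta subunit, SUCLG2 for GTP or SUCLA2 for ATP.

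Libraries held 16962012 to 17827433 counts, and the test took in 15160 genes. All 9 genes of the cycle were among them, with 302 to 5406 counts per library. Values below are CPM (counts scaled to a common library size) adjusted by trimmed mean of M values (TMM), which corrects for library composition, and fold changes are log2 of curcumol over control with the standard error (SE). TMM factors ran from 0.90 to 0.92 in curcumol and from 1.09 to 1.10 in control, so scaling by library totals alone places genes lower in curcumol and moves the median of all genes from -0.02 to -0.28. Log2 fold changes also differed with the GC content of transcripts, with 1163 genes higher and 2920 lower in the third of highest GC content and 2829 higher and 1196 lower in the third of lowest. IDH3A, SUCLG1, SUCLG2, SUCLA2 and FH belong to the third of lowest GC content, CS and DLST to the middle one, and IDH3B and OGDH to the highest. Results under both other settings are therefore given for each of the 9 genes. For the other cycle and list genes named below they are given only where a direction or call changed. Sizes of change of those genes and counts of the lists also shifted under these settings and are not all given. The kidney epithelial markers PAX8, PAX2, KRT8, KRT18 and KRT19 were counted in every library, whereas CA9, a hypoxia-induced gene typical of clear cell carcinoma, had 0, 2 and 3 counts in curcumol and 0, 1 and 0 in control. The 7 renal markers that were tested (these 5, LHX1 and CDH16) were all called lower in curcumol, where 40.3% of all tested genes were called lower. KRT18 still overlapped between the groups, and CDH16 had only 3, 5 and 2 counts in curcumol and 20, 27 and 15 in control. All 8 renal markers summed to 2071 to 2428 CPM in curcumol and 3155 to 3385 CPM in control. Markers of other cell types (13 genes) summed to 11.1 to 23.2 CPM in curcumol and 7.27 to 8.45 CPM in control, with 2 to 5 of them at 0 in curcumol libraries and 7 to 9 in control libraries. CD3E and HBB were at 0 in all 6 libraries, CD14 had 67 to 77 counts in curcumol and 0 to 3 in control, and COL1A2 had 70 counts in curcumol replicate 2 and at most 1 elsewhere. COL1A1 was called lower, with 14, 66 and 27 counts in curcumol and 100, 91 and 94 in control, and PDGFRB was called higher, with 77, 123 and 80 counts in curcumol and 54, 45 and 43 in control. Their part in the results was not tested.

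To set the genes of the 2 beta subunits side by side, stretches of their promoters are shown, as RefSeq gives them (GRCh38.p14). Both are on the minus strand and run from 250 to 101 bases before the start that RefSeq annotates. The SUCLA2 stretch lies inside the span given for SUCLA2 below, which is from GENCODE, so the 2 annotations place its start differently. Capitals mark a match to AAGGTCA, the half-site of estrogen-related receptors, which are known to act on mitochondrial genes.
SUCLG2, chr3:67654713-67654862: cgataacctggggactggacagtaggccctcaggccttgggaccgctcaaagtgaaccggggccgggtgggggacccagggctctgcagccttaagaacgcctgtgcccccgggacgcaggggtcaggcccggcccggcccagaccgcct
SUCLA2, chr13:48001374-48001523: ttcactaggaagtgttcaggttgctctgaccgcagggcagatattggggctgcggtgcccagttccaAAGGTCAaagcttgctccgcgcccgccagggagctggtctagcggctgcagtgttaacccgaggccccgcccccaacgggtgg
RefSeq promoters were matched for 8 of the 9 genes (not OGDH), and 4 motifs were searched on both strands of the 250 bases before the RefSeq start. The windows of IDH3A and SUCLG1 also lie inside the spans given for these genes below. AAGGTCA was found in SUCLA2 alone among the 8, 183 to 177 bases before its RefSeq start, and in 3.44% of 35116 promoters. The ETS core CCGGAAG was found in IDH3B and DLST and in 8.52% of all promoters. The NRF1 core GCGCATGC and the antioxidant response core TGACNNNGC were in 0 of the 8, against 2.63% and 10.9% of all promoters. The 4 motifs do not contain each other, and a match describes letters in a window and no binding.

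Of the 9 genes 3 were higher in curcumol (SUCLG1, SUCLA2 and IDH3B), 4 were lower (SUCLG2, OGDH, FH and CS) and 2 were not called (IDH3A and DLST), by the quasi-likelihood test of edgeR with an adjusted p under 0.05. These 7 calls stand against 79.7% of all tested genes called, 39.4% higher and 40.3% lower, so the share of genes called was close to that of the whole table. The median log2 fold change was 0.05, against -0.02 for all genes tested. The absolute log2 fold change was below the median of all genes, 0.88, for 7 of the 9, and above it for SUCLG2 and OGDH. The curcumol libraries lay wholly above the control libraries for 3 genes and wholly below for 4, against 39.8% and 41.1% of all genes tested (81.0% in either direction). Summed over the 9 genes, the level was 922, 865 and 863 CPM in curcumol and 977, 992 and 950 CPM in control. RNA-seq of whole cultures does not tell fewer cells that hold a transcript from less transcript per cell.

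**Figure D1:**
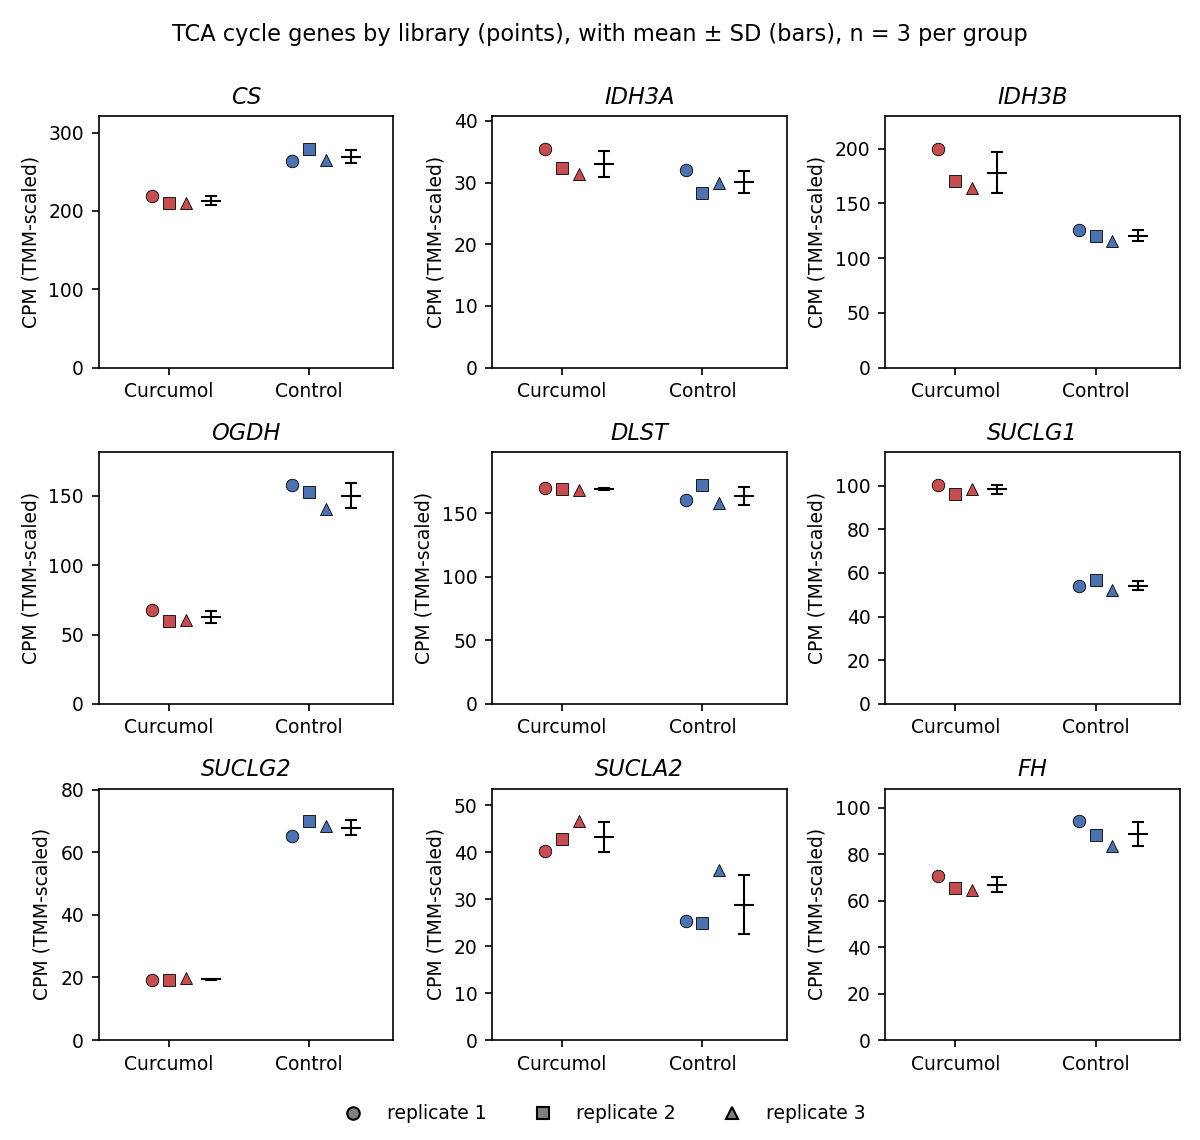
Each panel plots 1 gene of the cycle, with TMM-scaled CPM on the vertical axis (starting at 0), the 3 curcumol libraries (red) left of the 3 control libraries (blue), symbols for replicate numbers, and bars for mean ± SD (n = 3 each). The groups overlap for IDH3A and DLST, and control replicate 3 stands above the other 2 control libraries for SUCLA2.

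Citrate synthase, CS, joins acetyl-CoA to oxaloacetate and so starts the cycle (ENSG00000062485, chromosome 12, 56271699 to 56300392, GRCh38). Its level was 219, 210 and 210 CPM in curcumol and 263, 279 and 265 CPM in control. The curcumol libraries lay below all control libraries, and CS fell by 0.34 ± 0.06 on the log2 scale (SE, edgeR adjusted p = 1.04e-05), to 0.791 of the control level. The log2 fold change was -0.60 when scaled by library totals and -0.32 with a GC offset. CS shares 220 exonic bases with AC073896.1, which had 7 counts or fewer in each library.

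Isocitrate dehydrogenase 3, the NAD+-dependent enzyme that makes 2-oxoglutarate, has a catalytic alpha subunit from IDH3A, a beta subunit from IDH3B and a gamma subunit from IDH3G. IDH3B (ENSG00000101365, chromosome 20, 2658395 to 2664219) stood at 199, 170 and 164 CPM in curcumol and at 126, 120 and 116 CPM in control. It rose by 0.56 ± 0.07 on the log2 scale (SE, edgeR adjusted p = 2.53e-07), by 0.30 when scaled by library totals and by 0.89 with a GC offset. Curcumol replicate 1 was the highest library, and the other 2 curcumol libraries also stood above every control library.

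IDH3A (ENSG00000166411, chromosome 15, 78131498 to 78171949) had 35.4, 32.3 and 31.3 CPM in curcumol and 32.0, 28.4 and 29.9 CPM in control. The groups overlapped, and its log2 fold change of 0.13 ± 0.09 did not pass (SE, edgeR adjusted p = 0.174). It stood at -0.13 under either of the other settings (library totals, GC offset), so its direction rests on the scaling. Of its joined exons 2608 bases are shared with ACSBG1 on the other strand, a gene with at most 9 counts in a library. Whether reads were counted by strand is not stated. The third subunit gene, IDH3G, was at 18.2 ± 2.52 CPM in curcumol and 26.4 ± 1.55 CPM in control (SD, n = 3), a log2 fold change of -0.54 that became 0.11 with a GC offset (edgeR adjusted p = 0.338). IDH3G shares 278 exonic bases with SSR4 on the other strand.

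The 2-oxoglutarate dehydrogenase complex turns 2-oxoglutarate into succinyl-CoA, with OGDH as the E1 subunit that decarboxylates, DLST as the E2 core that transfers the succinyl group, and DLD as the E3 subunit that other dehydrogenase complexes also use. OGDH (ENSG00000105953, chromosome 7, 44606572 to 44709066) had 67.8, 60.0 and 60.5 CPM in curcumol and 158, 153 and 140 CPM in control. The groups were far apart, and OGDH fell by 1.26 ± 0.07 on the log2 scale (SE, edgeR adjusted p = 4.69e-13), to 0.417 of the control level. It stood at -1.53 with library totals and at -0.84 with a GC offset. Its size of change lay at percentile 65.4 of all tested genes.

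DLST (ENSG00000119689, chromosome 14, 74881891 to 74903745) had 169, 169 and 168 CPM in curcumol, all within the range of 160, 172 and 158 CPM in control. The change of 0.05 ± 0.06 on the log2 scale did not pass (SE, edgeR adjusted p = 0.458). The call and direction of DLST depended on the scaling, since it was lower with library totals (-0.22, edgeR adjusted p = 0.00154) and higher with a GC offset (0.22, edgeR adjusted p = 0.000427). DLD rose by 0.21 ± 0.06 (SE, edgeR adjusted p = 0.00299), but stood at -0.05 with library totals and fell by 0.31 with a GC offset (edgeR adjusted p = 2.99e-06). MRPS36, which in mammals tethers E3 to this complex, was at 21.8 ± 0.823 CPM in curcumol and 12.2 ± 0.475 CPM in control (SD, n = 3), a log2 rise of 0.84 that was 0.14 and no longer called with a GC offset (edgeR adjusted p = 0.22).

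Succinyl-CoA ligase makes GTP or ATP from succinyl-CoA, and 2 of its genes were higher and 1 was lower in curcumol. SUCLG1 (ENSG00000163541, chromosome 2, 84423523 to 84460045), the alpha subunit of both forms, had 100, 95.9 and 98.6 CPM in curcumol and 53.9, 56.5 and 52.2 CPM in control. The groups did not overlap, and SUCLG1 rose by 0.86 ± 0.07 on the log2 scale (SE, edgeR adjusted p = 1.73e-10), or by 0.59 under library totals and 0.39 under a GC offset. This is a level of 1.81 times control.

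SUCLG2 (ENSG00000172340, chromosome 3, 67360460 to 67654614), the beta subunit of the GTP form, had 19.3, 19.2 and 19.7 CPM in curcumol and 65.1, 69.8 and 68.5 CPM in control. The curcumol libraries agreed closely, with 302, 306 and 312 counts, and all lay far below control. SUCLG2 fell by 1.80 ± 0.08 on the log2 scale (SE, edgeR adjusted p = 1.12e-14), to 0.286 of the control level, and its log2 fold change was -2.07 under library totals and -2.23 under a GC offset. Its size of change lay at percentile 80.4 of all tested genes. SUCLG2-AS1, a noncoding gene named after it with which it shares no exonic base, had 42, 42 and 36 counts in curcumol and 77, 60 and 91 counts in control.

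SUCLA2 (ENSG00000136143, chromosome 13, 47745736 to 48037968), the beta subunit of the ATP form, had 40.2, 42.9 and 46.5 CPM in curcumol and 25.4, 24.97 and 36.1 CPM in control. Control replicate 3 stood above the other 2 control libraries and close to the lowest curcumol library, and the coefficient of variation in control, 21.9%, was the highest of the 9 genes. In counts, control replicate 3 had 700, above curcumol replicates 1 and 2 with 627 and 683. Library totals were similar, so the separation of the groups for SUCLA2 rests on the TMM scaling. SUCLA2 rose by 0.58 ± 0.12 on the log2 scale (SE, edgeR adjusted p = 0.000261), and by 0.77 without control replicate 3. With a GC offset it stood at 0.15 and was no longer called (edgeR adjusted p = 0.147), and with library totals at 0.32 (edgeR adjusted p = 0.0356).

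Fumarase, FH, hydrates fumarate to malate and is a tumour suppressor whose inherited loss is known from hereditary renal cell carcinoma (ENSG00000091483, chromosome 1, 241497603 to 241519761). It had 70.6, 65.5 and 64.5 CPM in curcumol and 94.0, 88.3 and 83.5 CPM in control. All curcumol libraries lay below all control libraries, and FH fell by 0.41 ± 0.07 on the log2 scale (SE, edgeR adjusted p = 2.39e-05), or by 0.67 under library totals and 0.68 under a GC offset. Pseudogenes named after the 9 genes held few counts, with 13 to 22 in curcumol and 2 to 12 in control for DLSTP1 and at most 1 in any library for the others.

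**Figure D2:**
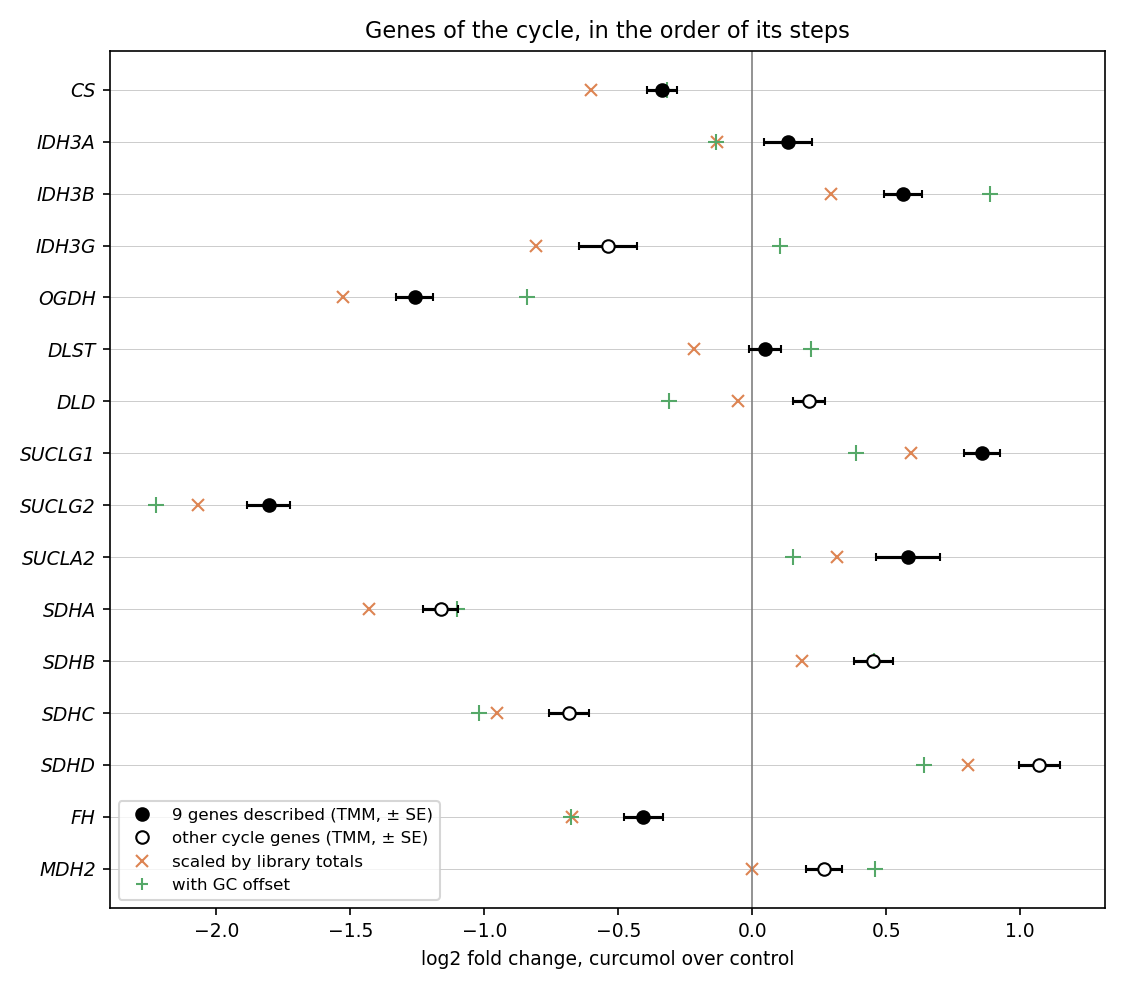
Log2 fold change of curcumol over control (horizontal axis) for genes of the cycle in the order of its steps, with filled circles for the 9 genes described, open circles for other genes of the cycle, bars for ± SE, crosses for scaling by library totals and plus signs for a GC offset. SUCLG2 (-1.80) and OGDH (-1.26) stand furthest left under TMM scaling, and the marks of IDH3A and DLST lie on both sides of 0.

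Ratios of counts between 2 genes of a library do not depend on library scaling, so subunits were compared in this way. The ratio of SUCLG2 to SUCLA2 was 0.482, 0.448 and 0.423 in curcumol and 2.56, 2.80 and 1.90 in control. SUCLG2 thus had fewer counts than SUCLA2 in each curcumol library and more in each control library. The mean log2 ratio differed by -2.41 between curcumol and control (exact permutation test, two-sided p = 0.1, adjusted over 6 ratios 0.15), where 0.1 is the smallest p that 3 against 3 libraries allow. Without control replicate 3 the difference was -2.57.

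The ratio of SUCLG1 to SUCLG2 was 5.18, 4.99 and 5.003 in curcumol and 0.827, 0.809 and 0.761 in control, a log2 difference of 2.66 (exact p = 0.1). OGDH to DLST stood at 0.400, 0.355 and 0.360 in curcumol and 0.986, 0.891 and 0.886 in control, a log2 difference of -1.31 (exact p = 0.1). IDH3A to IDH3B stood at 0.178, 0.190 and 0.191 in curcumol and 0.255, 0.236 and 0.259 in control, a log2 difference of -0.42 (exact p = 0.1). These 3 ratios did not overlap between the groups, and their exact p adjusted over the 6 ratios was 0.15. Of all tested single genes 81.0% did not overlap, and the share among gene pairs was not computed. In TMM-scaled CPM SUCLG2 lay wholly below control and SUCLG1 and SUCLA2 wholly above, so the ratios that hold SUCLG2 had to separate.

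The other 2 ratios overlapped between the groups. SUCLG1 to SUCLA2 was 2.49, 2.24 and 2.12 in curcumol and 2.12, 2.26 and 1.44 in control (log2 difference 0.26, exact p = 0.5, adjusted 0.5). CS to FH, the first and a late step of the cycle, was 3.11, 3.20 and 3.25 in curcumol and 2.80, 3.16 and 3.18 in control (log2 difference 0.07, exact p = 0.4, adjusted 0.48). Neither difference was larger than the spread between libraries in these counts. The GC trend is not removed by a ratio, and with a GC offset, an alternative added after seeing the data, CS to FH no longer overlapped and differed by 0.36 on the log2 scale (exact p = 0.1, adjusted over 6 ratios 0.12). The same offset took IDH3A to IDH3B to a log2 difference of -1.02, while SUCLG2 to SUCLA2 stood at -2.39.

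**Figure D3:**
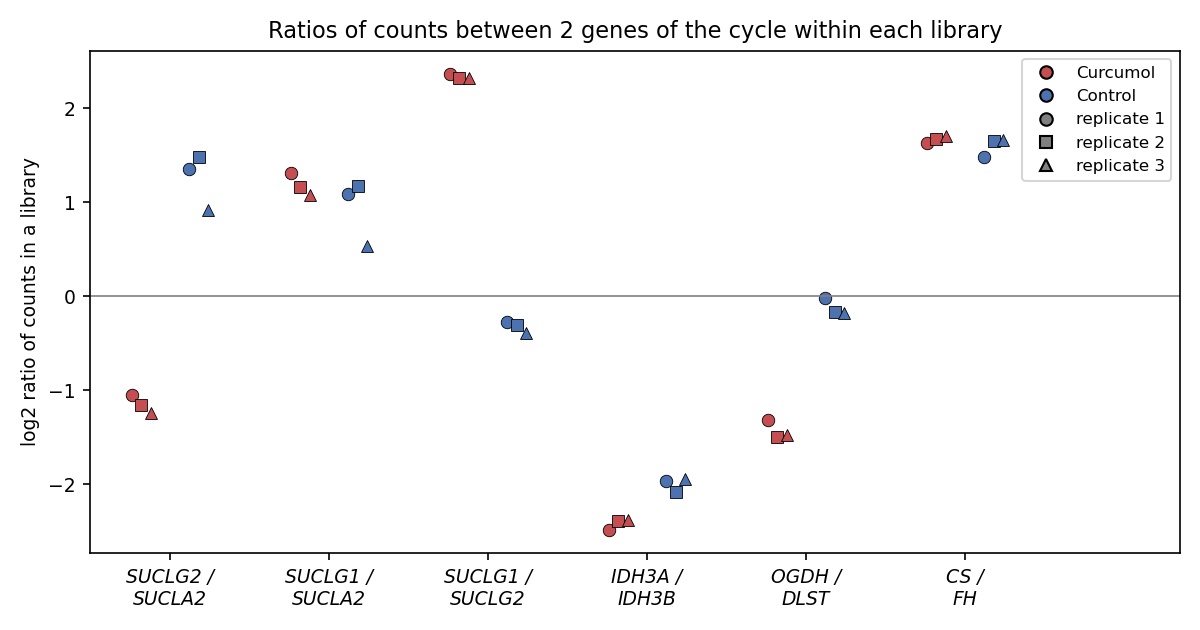
Log2 ratio of counts between 2 genes within a library (vertical axis) for 6 pairs, with curcumol (red) left of control (blue) and symbols for replicate numbers. Curcumol and control points are apart for 4 pairs and overlap for SUCLG1 over SUCLA2 and CS over FH. The share of all gene pairs that stand apart was not computed.

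Levels of different genes were compared per kilobase of the longest coding transcript in GENCODE 29. In curcumol the order from high to low was IDH3B (115 CPM per kb), CS (69.7), SUCLG1 (66.6), DLST (59.5), FH (37.2), SUCLA2 (18.6), OGDH (15.0), SUCLG2 (8.26) and IDH3A (8.0004). In control it was CS (88.0 CPM per kb), IDH3B (78.0), DLST (57.6), FH (49.3), SUCLG1 (36.7), OGDH (36.0), SUCLG2 (28.8), SUCLA2 (12.4) and IDH3A (7.29). Neighbours in the order whose library ranges overlapped were SUCLG2 and IDH3A in curcumol, and SUCLG1 and OGDH in control. Per kilobase, SUCLG2 made up 30.8% ± 1.38 of the summed beta subunit level in curcumol and 70.1% ± 4.34 in control (SD, n = 3). The summed beta level was 26.9 ± 1.46 CPM per kb in curcumol and 41.3 ± 3.12 CPM per kb in control, beside 66.6 ± 1.43 and 36.7 ± 1.49 CPM per kb for the alpha subunit SUCLG1 (SD, n = 3). These values depend on the length used. With all annotated exons joined as the length, an alternative added after seeing the data, SUCLG2 made up 56.5% ± 1.59 of the summed beta level in curcumol and 87.2% ± 2.34 in control (SD, n = 3), so that which beta gene was higher per kilobase in curcumol rests on the length. The summed beta level was then 11.1 ± 0.423 CPM per kb in curcumol and 25.2 ± 1.17 CPM per kb in control (SD, n = 3). In that order of levels IDH3B came first in both groups, and SUCLA2 came eighth in curcumol and last in control.

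The remaining 8 genes of the cycle were all called, 5 higher and 3 lower, where 79.7% of all tested genes were called, 39.4% higher and 40.3% lower. They had a median log2 fold change of 0.24, and 3 of them were called higher with library totals or in a test against a 1.2-fold change. MDH2, which closes the cycle by oxidizing malate, rose by 0.27 ± 0.07 and stood at 0.00 with library totals (edgeR adjusted p = 0.993).

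The subunits of succinate dehydrogenase, which is also complex II of the respiratory chain, went both ways. The flavoprotein SDHA fell by 1.16 ± 0.07 and the membrane anchor SDHC by 0.68 ± 0.07, while the iron-sulfur subunit SDHB rose by 0.45 ± 0.07 and the membrane anchor SDHD by 1.07 ± 0.07 on the log2 scale (SE, edgeR adjusted p from 5.67e-13 to 6.62e-06). SDHA was at 120 ± 11.01 CPM in curcumol and 269 ± 9.40 CPM in control, and SDHD at 97.4 ± 5.44 CPM in curcumol and 46.3 ± 3.28 CPM in control (SD, n = 3). SDHA has near-identical pseudogenes, of which SDHAP1 had 139 to 153 counts in curcumol and 196 to 228 in control, so the division of reads between them is uncertain.

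Genes around the cycle were counted in 5 further lists, each to be read against the same background of 39.4% of all tested genes higher and 40.3% lower. In the list for pyruvate entry 7 of 13 genes were higher and 5 lower (median 0.23), and 3 were lower in the test against 1.2-fold. PDK1, a kinase that inhibits pyruvate dehydrogenase, rose by 2.06 ± 0.09 and PDHX, which binds E3 in that complex, by 1.37 ± 0.08, while PDHB, its E1 beta subunit, fell by 1.47 ± 0.09 on the log2 scale (SE). Among 9 cytosolic and NADP-linked counterparts and genes of citrate use 3 were higher and 5 lower (median -0.48). ACO1, cytosolic aconitase, fell by 1.69 ± 0.06, and IDH1, the cytosolic NADP-dependent isocitrate dehydrogenase, rose by 1.49 ± 0.06. The malic enzyme ME1 rose by 1.602 ± 0.07.

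Of 6 relatives of the 2-oxoglutarate dehydrogenase complex 2 were higher and 3 lower (median -0.42), and BCKDHA had too few counts to be tested. Of them 1 was higher with library totals or in the test against 1.2-fold and 0 with a GC offset. OGDHL, the closest relative of OGDH, was at 2.43 ± 0.715 CPM in curcumol and 13.1 ± 0.259 CPM in control (SD, n = 3), a log2 fall of 2.43 ± 0.18. DHTKD1, the E1 of 2-oxoadipate breakdown, fell by 1.496 ± 0.10.

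Of 7 genes of succinyl-CoA supply and use 3 were higher and 2 lower (median -0.11), and 4 were lower with library totals or with a GC offset. ALAS1, which takes succinyl-CoA for heme synthesis, rose by 1.33 ± 0.06, OXCT1, which takes it for ketone body use, fell by 1.55 ± 0.11, and PCCB of propionyl-CoA carboxylase fell by 0.70 ± 0.08 on the log2 scale (SE). Of 7 genes of glutamate entry and fumarate supply 0 were higher and 5 lower (median -0.83), beside 40.3% lower and a median of -0.02 among all tested genes. GOT2, mitochondrial aspartate aminotransferase, fell by 0.73 ± 0.06, and ASL, which releases fumarate from argininosuccinate, fell by 2.471 ± 0.12. Of the genes named from these 5 lists, PDK1, PDHX, PDHB, IDH1, OXCT1, PCCB, GOT2 and ASL share 94 to 1664 exonic bases with other genes.

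**Figure D4:**
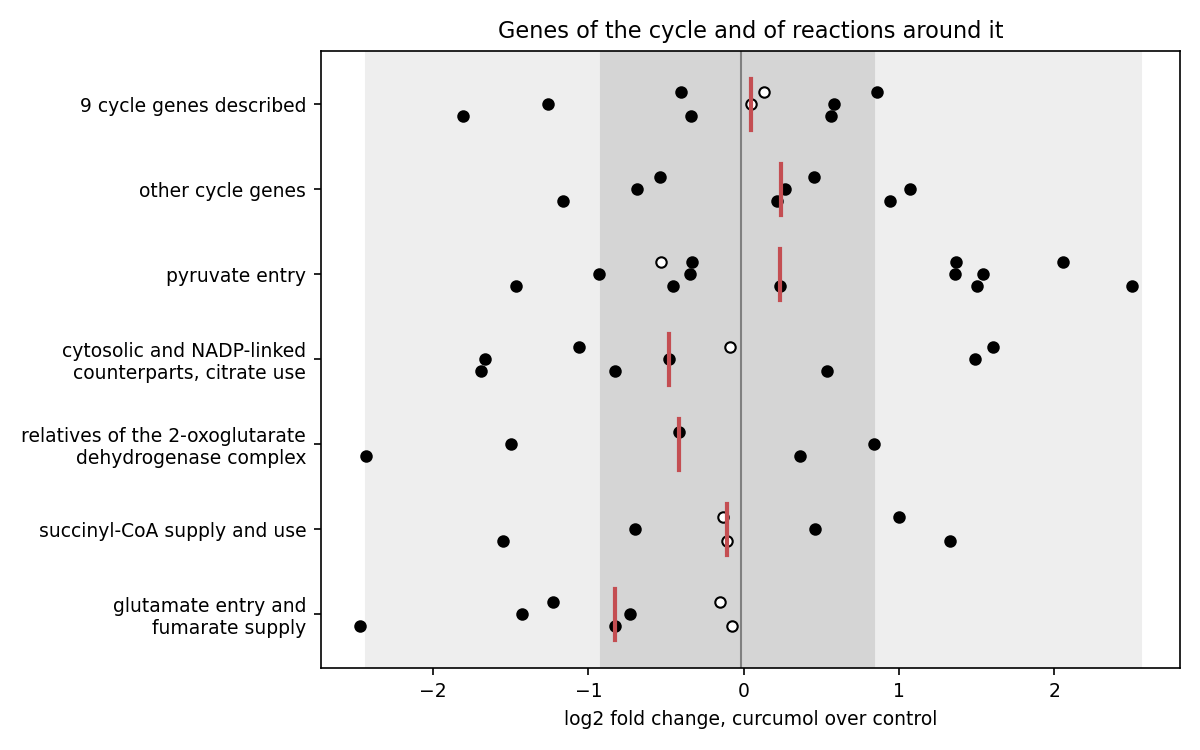
Log2 fold change of curcumol over control (horizontal axis) for each tested gene of 7 lists, with filled points for genes called by edgeR, open points for genes not called and red bars for list medians. The grey bands hold the middle 50% and 90% of all 15160 tested genes, and the points of the 9 cycle genes all lie within the wider band.

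Genes with the most similar pattern were sought by the root mean square (RMS) difference of centred log2 CPM over the 6 libraries, among 9258 other genes with a mean of at least 10 CPM. Nearest to SUCLG2 were BRD9 (RMS difference 0.027), CCND1 (0.036) and DOP1B (0.036). Nearest to SUCLG1 were TPM3 (0.0087), CCT8 (0.024) and CDC123 (0.025), and nearest to OGDH were PSMB8 (0.023), FARSA (0.030) and NAT10 (0.031). The gene nearest to SUCLA2, VAMP4 (0.041), was further away than the nearest gene of each of the other 8. With 6 libraries in 2 groups this measure mostly follows the difference between the groups.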

How the data were processed

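The deposited values are raw counts per gene (whole numbers with no normalization by the authors) in 1 table. The submitters' processing notes name GRCh38 (hg38), while aligner, counting tool, annotation release and strand setting were not given in the sources used here. All 58735 gene IDs are in GENCODE 29, which gave coordinates, exon overlaps, transcript lengths and GC content. Libraries (3 per group) were grouped by their titles, and replicates are described as independent biological replicates. Genes were filtered with filterByExpr, scaled with TMM and tested with the robust quasi-likelihood F test of edgeR 4.0.16 in R 4.3.3, adjusted over all 15160 genes tested (Benjamini-Hochberg, threshold 0.05). The SE was taken as the size of the log2 fold change over the root of F. Ratios were tested by exact permutation over libraries in SciPy 1.17.1. The script was tested on simulated data, where it recovered 22.4% of 1.25-fold, 75.5% of 1.5-fold, 93.8% of 2-fold and 100% of 4-fold changes. In that simulation only 48 to 50 of 14847 genes were changed at each fold, with a common dispersion, whereas 79.7% of the tested genes were called here. These rates can therefore differ from those in the data. A gene that was not called may still hold a small change. Within groups, chi-square over its degrees of freedom was 3.62 to 8.74, so no library repeats another within counting noise. The members and gene lists were chosen with earlier results of these data known. Named genes are the members, every other gene of the cycle, the 3 genes with the smallest p of each further list and the 3 genes nearest to each member, of which some are not reported here. Genes such as SUCLG2-AS1, ACSBG1 and the pseudogenes are named for their position or likeness to a member, and markers for the check of the cell line. Alternatives were DESeq2 1.42.0, size factors as in DESeq2, scaling by library totals, no filter, a stricter filter (mean of 1 CPM and of 50 counts or more), a replicate block, a test against 1.2-fold, a GC offset (natural spline, 5 degrees of freedom, fitted in every library) and each library left out.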

Additional observations from a re-analysis of the deposited data

How the results depend on the processing

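Of 126 values of the 9 genes under the alternatives, 120 kept their direction and their side of the threshold. The exceptions were IDH3A (-0.13 under library totals and also -0.13 under a GC offset), DLST (-0.22 with library totals, -0.0025 with no filter and 0.22 with a GC offset) and SUCLA2 (0.15 with a GC offset). The cause was not tested. The number of the 9 genes called higher was 3 under every alternative run, and 4 or 5 were called lower. With a GC offset the 3 were IDH3B, SUCLG1 and DLST, the last in place of SUCLA2. Of 322 values of the other named genes 315 kept both, and DLD (-0.053 under library totals, -0.31 under a GC offset) and IDH3G (0.11 with a GC offset) changed direction. In the test against 1.2-fold DLD (edgeR adjusted p = 0.608) and MDH2 (edgeR adjusted p = 0.289) were no longer called. MDH2 with library totals and MRPS36 with a GC offset also lost their call. Over all genes, library totals gave 4818 higher and 7372 lower, and leaving out 1 library gave 5903 to 6072 higher and 5967 to 6232 lower. Correlations of deviations were 0.049, -0.037 and 0.109 for equal replicate numbers and -0.133 to 0.090 for unequal ones. So few libraries cannot decide whether the replicate numbers pair the samples. The replicate block gave 5955 higher and 6131 lower and changed no call among the 9 genes. The 6 ratios were recomputed with 1 count added, with the replicate block, with 1 library left out and, added after seeing the data, with a GC offset, and these 54 values kept their direction, although CS over FH went to 0.36 and IDH3A over IDH3B to -1.02 with the GC offset. With 1 library left out the smallest exact p is 0.2. Depth limits mainly the genes with few counts, of which none is among the 9.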
